A study of Arabidopsis thaliana with 4 samples.

Results

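The 9 genes described here belong to the photoperiodic flowering pathway of Arabidopsis thaliana: the CYCLING DOF FACTOR genes CDF1 to CDF5, CONSTANS (CO) with its relatives COL1 and COL2, and FLOWERING LOCUS T (FT). They were chosen by locus identifier, 9 of 27444 protein-coding genes on the nuclear chromosomes. Every peak that overlapped a gene's annotated span with 3000 bp added on both sides was taken. The data are chromatin immunoprecipitation sequencing (ChIP-seq) peak lists for RVE5, a MYB-like REVEILLE factor related to the clock proteins CCA1 and LHY.

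There were 4 samples, of which 3 were ChIP replicates made with an anti-MYC antibody and 1 was input DNA made with none. All 4 came from RVE5-MYC overexpression seedlings aged 14 days, grown at 22 °C in cycles of 16 h light and 8 h dark, held at 29 °C for 12 h and collected at zeitgeber time (ZT) 12 h, when the lights were still on. Every sample therefore carried the tagged transgene and had been warmed. The labels do not give the promoter of the transgene, the ecotype, the number of lines or what separates one replicate from another, so their spread may be technical. With no untagged seedlings and no second temperature, antibody signal that recurs without RVE5-MYC cannot be told apart from binding, and no change was measured.

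CDF proteins are Dof-type transcription factors that repress CO and FT during the morning. In the long-day afternoon the blue-light F-box protein FKF1, acting with GIGANTEA (GI), marks CDF proteins for degradation, and CO transcription rises. CO protein, stabilised by evening light, then activates FT in the leaf, and the FT protein travels to the shoot tip as the florigen. The question put to the lists was which of these steps had peaks.

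Peaks lay at 2 of the 5 CDF genes and at neither CO nor FT. Of the 5 CDF genes, CDF1 and CDF3 had a peak in each of the 3 replicates, and CDF2 (AT5G39660), CDF4 (AT2G34140) and CDF5 (AT1G69570) had none in any. CO (AT5G15840), COL1 (AT5G15850), COL2 (AT3G02380) and FT (AT1G65480) also had none in any replicate. Thus 2 of the 9 genes had a peak in any list, against 12.8% of all protein-coding genes with the same 3000 bp. The same 2 genes had peaks in at least 2 lists, against 4.65% of all genes. They were also the 2 with a region that all 3 lists share, against 1.70% of all genes. A shared region is a run of peaks that overlap by at least 1 bp and include all 3 lists. In single lists, 2 of the 9 genes had a peak in each of replicates 1, 2 and 3, against 5.59%, 6.61% and 7.02% of all genes. With 9 genes chosen for their pathway, these counts were described and not tested. As 12.8% of all protein-coding genes had a peak in any list, having none was the usual state. The lack of a peak at CO, FT or the other genes is therefore no result about those steps.

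The region at CDF1 (AT5G62430), a repressor of CO and FT, covered chromosome 5 from 25068141 to 25068718 (TAIR10). The stretch from 25068214 to 25068488, 275 bp long, was common to the peaks of all 3 lists. The peaks were 536, 275 and 431 bp wide in replicates 1, 2 and 3, with summits at 25068324, 25068358 and 25068370. These summits lay 769, 735 and 723 bp outside the gene span, on the side of its lower coordinate. The summits thus fell within 46 bp of each other, while the median spread over the 199 shared regions of the genome was 75 bp (quartiles 43.5 and 153). No other annotated gene lay as near: the next were the long non-coding RNA genes AT5G09065, 1296 to 1342 bp away, and AT5G09070, 1760 to 1806 bp away, and the nearest other protein-coding gene was AT5G62420, 1988 to 2034 bp away.

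The read pileup at the CDF1 summit was 43 reads in replicate 1, 52 in replicate 2 and 56 in replicate 3, or 50.3 ± 6.66 (SD, n = 3). The exact 95% Poisson intervals of these counts, 31.1 to 57.9, 38.8 to 68.2 and 42.3 to 72.7, overlap, and they cover counting error only. The fold enrichment is the authors' own value for each peak, and is called here the fold over the local background. It was 3.27, 3.70 and 3.83 in replicates 1, 2 and 3. The mean was 3.60 ± 0.295 (SD, n = 3). Replicate 1 was the lowest of the 3 in pileup and in fold. The peak ranked 94th by fold among 676 peaks in replicate 1, 47th among 827 in replicate 2 and 41st among 864 in replicate 3, which placed it in the top 13.9%, 5.68% and 4.75% of the lists. In each list its fold exceeded the list's median, by a factor of 1.27, 1.47 and 1.53.

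The region at CDF3 (AT3G47500), a second Dof repressor of the same group, covered chromosome 3 from 17502931 to 17503295, with 244 bp from 17503021 to 17503264 common to all lists. Its peaks were 334, 300 and 250 bp wide in replicates 1, 2 and 3. The summits, at 17503133, 17503113 and 17503147, lay 750, 770 and 736 bp outside the gene span, again on the side of the lower coordinate, and within 34 bp of each other. CDF3 was the nearest annotated gene in all 3 lists. The next was AT3G47490, 2107 to 2141 bp from the summits.

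At CDF3 the pileup was 54 reads in replicate 1, 58 in replicate 2 and 56 in replicate 3, or 56 ± 2.0 (SD, n = 3). The fold was 3.74, 3.78 and 3.51, with a mean of 3.68 ± 0.146 (SD, n = 3). The coefficient of variation of the fold was 8.20% at CDF1 and 3.96% at CDF3, against a median of 9.36% over all shared regions. The peak ranked 44th, 45th and 67th by fold in replicates 1, 2 and 3, the top 6.51%, 5.44% and 7.75%. The plot of fold against rank shows where both genes lie in each list, below its strongest peaks.

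**Figure D1:**
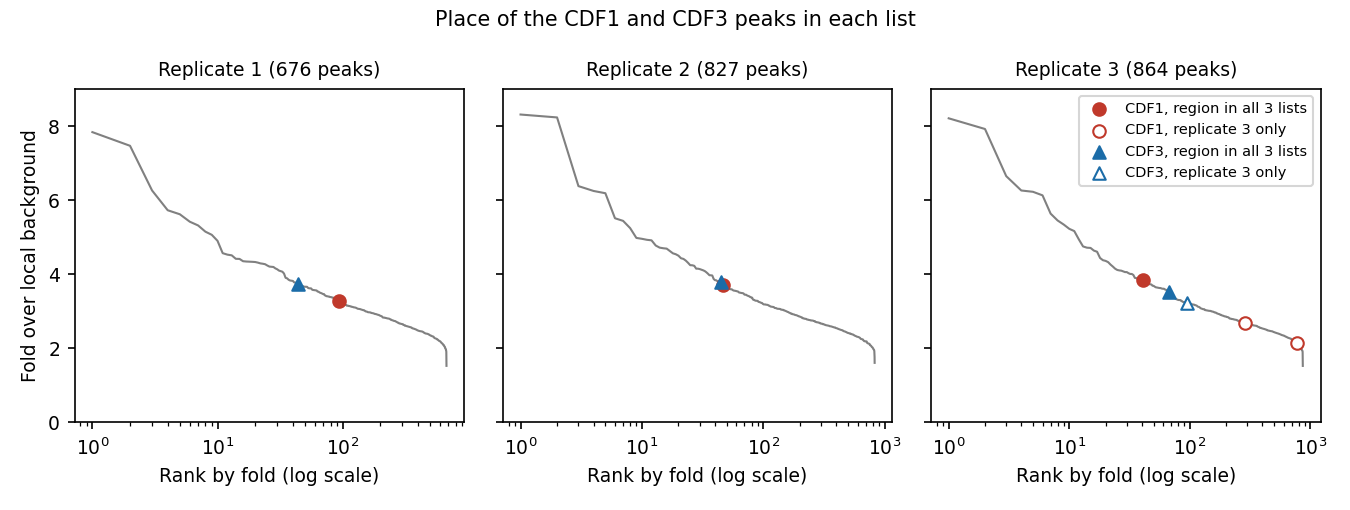
Fold over the local background (y axis) against the rank by fold (x axis, log scale) for all peaks of each ChIP replicate (grey line), with CDF1 as red circles and CDF3 as blue triangles. Filled symbols are the regions found in all 3 lists, with folds of 3.27 to 3.83; open symbols are the 3 further peaks found in replicate 3 only.

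The CDF1 and CDF3 regions did not separate from each other. Within a list, the log2 fold of CDF1 minus that of CDF3 was -0.19 in replicate 1, -0.03 in replicate 2 and 0.13 in replicate 3, so the sign varied. The mean was -0.03 ± 0.160 (SD, n = 3). The exact two-sided sign-flip permutation test gave p = 0.75, but with 3 lists such a test cannot go below 0.25, so it could show no difference. Among the 199 shared regions, ordered by mean rank of the fold, CDF1 held place 53 and CDF3 place 44. The median of the mean fold over those regions was 3.00, with quartiles of 2.69 and 3.68.

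The position relative to the gene was alike at CDF1 and CDF3. The mean summit lay 742 bp from the CDF1 span and 752 bp from the CDF3 span. Of the 199 shared regions, 122 had a mean summit beside the nearest protein-coding gene and not in one, at a median distance of 267 bp (quartiles 93.7 and 741). A band from 700 to 800 bp, drawn after these values were seen, held 5 of the 122. These included CDF1, CDF3 and the region at GI, whose mean summit lay 735 bp from its gene. The GI summit of replicate 1, at 683 bp, lay outside the band. The rest of the 5 had AT2G18420 (737 bp) and AT3G14060 (708 bp) as nearest genes, both outside the pathway list. The gene table used gives no strand, so these distances do not say which end of the gene is the start. The map of the peaks shows the side and the distance for each list.

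**Figure D2:**
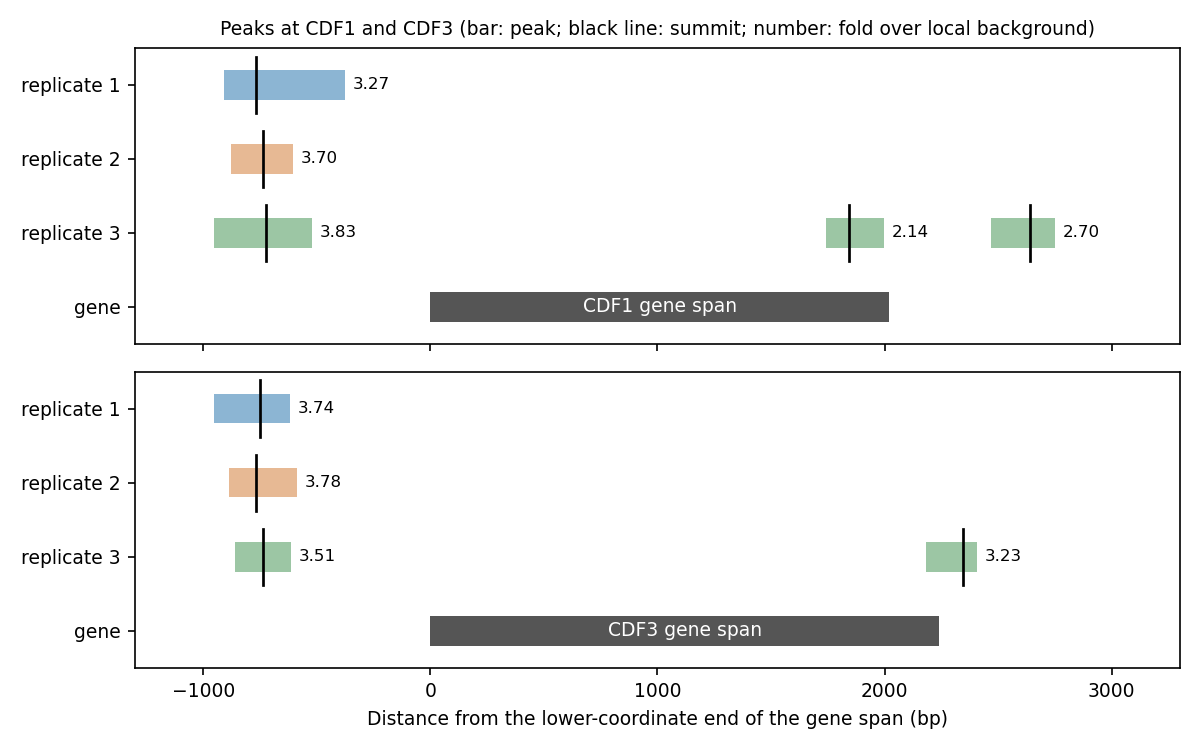
Peaks of the 3 ChIP replicates at CDF1 (top) and CDF3 (bottom), by distance in bp from the lower-coordinate end of the gene span (dark box); coloured bars are peaks, black lines summits and numbers the fold over the local background. In all 3 lists the summit lies 723 to 770 bp outside the span, and the further peaks at the other end of the genes are from replicate 3 only.

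Replicate 3, the longest list, held 3 more peaks within 3000 bp of these genes, all at the opposite end. At CDF1 one peak, on chromosome 5 from 25070834 to 25071091, had its summit inside the gene, 173 bp from the upper end of the span. Its pileup was 33 reads and its fold 2.14, 772nd among 864, below the list's median of 2.50. Another, from 25071564 to 25071842, had 40 reads, a fold of 2.70 and rank 284. Its summit lay 623 bp beyond CDF1 and 383 bp from the neighbouring gene AT5G62440, so by distance it belonged to that neighbour. At CDF3 a peak on chromosome 3 from 17506066 to 17506291 had its summit 103 bp beyond the upper end of the gene, with 53 reads, a fold of 3.23 and rank 95. This single-list peak was close in pileup to the 56 reads of the shared CDF3 region in the same replicate. No peak of replicates 1 or 2 overlapped any of the 3.

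The 7 genes without a peak were far from any. Within the 3000 bp limit, the summit farthest from its gene was that of CDF3 in replicate 2, at 770 bp, so none lay close to the limit. Among the 7 genes without a peak, the nearest summit was that of a replicate 3 peak 19258 bp from COL2, a relative of CO. The nearest to COL2 in replicates 1 and 2 were 56853 and 184792 bp away. For FT, which encodes the florigen, the nearest summit in replicates 1, 2 and 3 was 127383, 27321 and 135176 bp from the gene. For CO, the activator of FT, it was 38689, 38849 and 32304 bp away. For COL1, the neighbour of CO, it was 33877, 34037 and 27492 bp. CO and COL1 stand 3005 bp apart, so their windows overlap and they do not count as independent cases.

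Among the CDF genes without a peak, CDF5 had its nearest summit at 26831, 32038 and 32047 bp in replicates 1, 2 and 3, and CDF4 at 45403, 76716 and 76821 bp. CDF2, which also represses CO, had its nearest at 165437, 165446 and 94741 bp. The nearest shared region was centred 165489 bp from CDF2, 587352 bp from CDF4 and 490825 bp from CDF5. Absence from a list is not absence of signal. The lowest listed pileup was 18 reads in each list, but the 5th percentile was 30, 30 and 31 reads in replicates 1, 2 and 3. The lowest listed folds, 1.53, 1.61 and 1.53, came from a region on chromosome 2 with pileups of 2872, 3234 and 3183 reads. These lowest values are therefore no detection limit for CO or FT. The library totals are unknown, so weaker occupancy at CO, FT or the other genes was not detectable here.

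The remaining genes of the pathway were taken from a list of 70, arranged by step. Of these, 31 had a peak in any list, 18 in at least 2 lists and 10 a shared region. That is 44.3% with any peak against the background of 12.8%, and 14.3% with a shared region against 1.70%. The background for peaks in at least 2 lists was 4.65%. The list was drawn up with results at several of these genes already known, so the shares are not independent evidence. Light and clock input gave 3 of 10 genes with a shared region, the group of GI and the F-box genes 2 of 4, regulators of FT 2 of 16 and the other CO-like genes 3 of 14. Regulators of CO gave 0 of 12, the partners of FT and floral integrators 0 of 7, the relatives of FT 0 of 5 and the further CDF-like genes 0 of 2. At the background of 1.70%, groups this small would usually hold none, so these counts of 0 do not set the steps apart. Peaks without a shared region did lie at some of these steps. Of the 12 regulators of CO, 5 (41.7%) had a peak in any list and 3 in at least 2 lists. Of the 7 partners and integrators, 3 (42.9%) had a peak in any list and 2 in at least 2 lists. Among them, SOC1 had a peak in all 3 lists, without a shared region. Its folds were 3.11, 3.04 and 3.09 in replicates 1, 2 and 3. The relatives of FT and the CDF-like genes had no peak. The stacked bars by step show the same counts with the genes of weaker support.

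**Figure D3:**
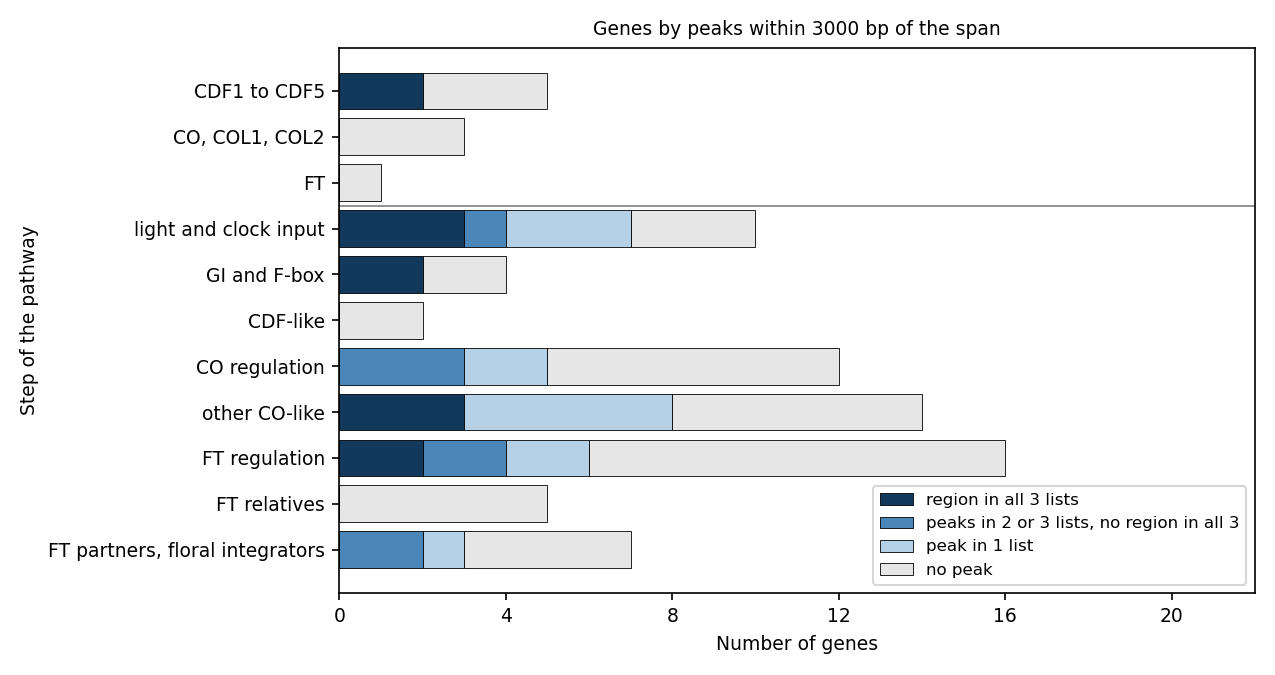
Number of genes (x axis) at each step of the pathway (y axis), split by whether a region of all 3 lists, peaks in 2 or 3 lists without such a region, a peak in 1 list or no peak lay within 3000 bp; the upper 3 bars are the 9 genes described here. The CDF bar holds 2 genes with a region in all 3 lists, and the CO and FT bars hold none.

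Upstream of the CDF proteins, GI and FKF1 had regions with a higher fold than CDF1 and CDF3. The GI region held rank 1 by fold in each of the 3 lists, so any other region would lie below it. CDF1 lay below GI in 3 of 3 lists, with 3.60 ± 0.295 at CDF1 and 8.12 ± 0.250 at GI (SD, n = 3 each). The log2 difference was -1.18 ± 0.0816, or a ratio of 0.443. CDF3 also lay below GI in 3 of 3 lists, by a log2 difference of -1.14 ± 0.0789. Against FKF1, with 4.67 ± 0.354 (SD, n = 3), the log2 difference was -0.38 ± 0.229 for CDF1 and -0.34 ± 0.0860 for CDF3, again lower in 3 of 3 lists. All 4 differences gave p = 0.25 in the exact two-sided sign-flip permutation test, the smallest that 3 lists allow, and 0.312 after Benjamini-Hochberg adjustment over the 5 pairs compared. For the pairs with GI, the sign and the test result followed from the rank of GI and say nothing particular of CDF1 or CDF3. The pileup divided by the fold, a rough measure of the local background, was 13.9 reads at CDF1 and 15.2 at CDF3, against 17.2 at GI and 21.4 at FKF1 and a median of 16.0 over shared regions. This measure is computed from the fold itself, and what the fold was taken over is not stated. Whether background bears on the differences in fold was not tested.

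Regulators of FT with a shared region were SVP and TOE1, both of which encode repressors of FT. SVP, a MADS-box repressor, had a region on chromosome 2 from 9579742 to 9580147, with its summit inside the gene in all 3 lists. Its fold was 3.37, 3.04 and 3.12 in replicates 1, 2 and 3, or 3.18 ± 0.172 (SD, n = 3). TOE1, an AP2-type repressor that also restrains CO protein, had 2.47, 3.12 and 2.74, or 2.78 ± 0.330 (SD, n = 3), with summits inside the gene or within 10 bp of it. The means at CDF1 and CDF3 lay above both. In the order of the 199 shared regions, CDF1 and CDF3 held places 53 and 44, SVP held place 72 and TOE1 place 134.

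Clock genes in the list with a shared region were PRR7 (5.65 ± 0.937), TOC1 (4.17 ± 0.308) and PRR5, with a near region of 3.65 ± 0.126 and a farther one of 4.26 ± 0.560 (SD, n = 3 each). PRR5 and PRR7 are known as daytime repressors of CDF1. The 3 CO-like genes with a shared region were BBX8 (6.43 ± 0.198), COL9 (4.81 ± 0.600) and BBX13 (4.48 ± 0.575; SD, n = 3 each). They belong to a branch of the CO-like family other than that of CO, COL1 and COL2, which had no peak. The plot of fold by list sets these regions beside CDF1 and CDF3.

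**Figure D4:**
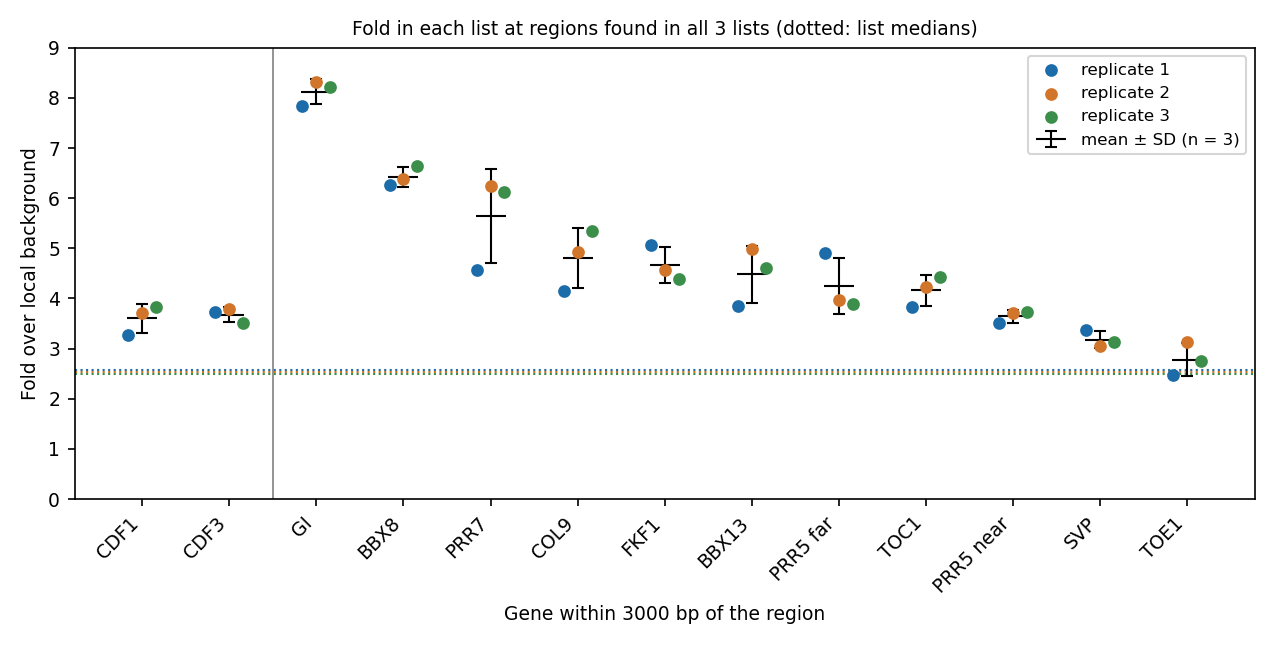
Fold over the local background (y axis) in each of the 3 ChIP lists (coloured points) at each region of the pathway list found in all 3 lists (x axis, CDF regions left of the grey line), with the mean and SD in black and the list medians as dotted lines. CDF1 and CDF3, with means of 3.60 and 3.68, lie above the list medians of 2.50 to 2.58 and below GI at 8.12; PRR5 has 2 regions, named near and far by their distance from the gene.

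The shared regions whose fold over the 3 lists came closest to that of CDF3, the higher ranked of the 2 CDF regions, had PORB, TUB5 and PRR5 as their nearest genes. The measure was the Euclidean distance of the log2 fold over the 3 lists, 0.10, 0.13 and 0.13. PORB encodes an enzyme of chlorophyll synthesis and TUB5 a tubulin. The folds were 3.74 ± 0.239 at PORB, 3.76 ± 0.282 at TUB5 and 3.65 ± 0.126 at the near region of PRR5 (SD, n = 3 each). The fold at CDF3 was thus of a size also found at PORB and TUB5, which are outside the pathway list.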

How the data were processed

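The authors deposited 1 peak list for each of the 3 ChIP replicates. The genome build TAIR10 and CASAVA 1.4 are named in the submitters' processing notes. The sources used here do not say how reads were aligned and peaks called, at which threshold, or whether the input served as control. An input list was not used. Per the file headers, each deposited list gives the pileup, the fold enrichment, and the −log10 of the p-value and of the q-value. The pileup was read as the coverage signal at the summit. The fold enrichment, a ratio, is called here the fold over the local background, a name the headers do not give. The pileups are whole numbers, no scaling between libraries is stated, and totals of reads are unknown.

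Peaks were merged where they shared at least 1 bp. Gene spans came from the RefSeq table of TAIR10.1 and were used as if its nuclear coordinates were those of TAIR10, which was not tested. The table gives no strand, and no sequence was used here, so the planned motif search was not run. CDF4 and CDF5 (AT2G34140 and AT1G69570) were matched by locus identifier, as the table lacks these symbols, and so were 11 of the 70 pathway genes. Values per list are those of the peak with the highest fold in a region. The genes and lists were chosen with earlier results of these data known. Named are the 9 genes, GI, FKF1, pathway genes with a shared region, the 3 regions most like CDF3, and nearer neighbours. The flanking genes AT5G09065, AT5G09070, AT5G62420 and AT3G47490 were added after their positions were seen. So were AT2G18420 and AT3G14060 of the distance band, and SOC1. Overlap counting was tested on simulated data. Python 3.11.15, pandas 2.3.3, NumPy 2.4.6 and SciPy 1.17.1 were used.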

Additional observations from a re-analysis of the deposited data

How the results depend on the processing

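Of 44 alternatives, 42 kept the result, where any value within a fixed factor of the main value counted as kept. The mean rank of CDF1, 60.7 by fold and 83.7 by p-value, was among those counted as kept. With a flank of 0 bp, 2 genes still had a peak in any list, but 0 had peaks in at least 2 lists and 0 a shared region, since both regions lie outside the gene spans. Flanks of 1000 and 5000 bp, summits in place of whole peaks, the nearest gene only, the 50% of peaks with the best p-values, summits within 100 bp and an overlap of 50% each left the counts they bear on at 2. Leaving out 1 replicate gave 2 to 2 genes for each count, a mean fold of 3.49 to 3.77 at CDF1 and 3.63 to 3.76 at CDF3, and a mean pileup of 47.5 to 54.0 and 55 to 57 reads. Ranked by p-value, the mean rank was 83.7 at CDF1, against 60.7 by fold, and 60.7 at CDF3, against 52.0. The number of other pathway genes with a shared region stayed at 10 with a flank of 1000 bp. No pairing of sample groups was possible because the lists used here are all of the ChIP group. The differences between regions were instead paired within each ChIP list, as in the sign-flip tests above. A wider flank or fewer required lists cannot remove a gene, so those alternatives test little. A typical summit of about 38 to 40 reads limits what can be said of genes without a peak.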
